A study of Macaca mulatta with 24 samples.

Results

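AMPA, kainate and metabotropic glutamate receptors, the proteins that carry and hold them at the synapse, and the calcium-dependent enzymes of the postsynaptic density were examined as 1 set of 51 genes. The genes were listed by symbol, and a gene counted as measured when at least 1 of its probes had a detection p under 0.01 on at least 4 of 24 arrays. By this rule 37 of the 51 were measured, among 9884 genes in all. The animals were 24 adult male rhesus monkeys aged 7 to 13 years, and cerebral cortex RNA (temporal neocortex by the extraction protocol) was hybridised to a human beadchip, 1 array per animal. For 24 months, 10 animals received a high-fat/high-sugar diet with resveratrol (HFS+R), 10 the same diet with placebo treats (HFS), and 4 a standard diet with placebo treats (SD). Fat gave 42% of the energy of the HFS diet and 13% of that of SD, and sucrose made up 27% of the weight of the HFS diet and under 5% of that of SD. The resveratrol treats held 40 mg in year 1 and 240 mg in year 2, given 2 times a day. Groups held separate animals, so the spread between arrays includes that between animals. Their number, above all the 4 SD animals, limits the precision of every comparison.

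Glutamate released by a neuron opens AMPA and kainate receptors, which are ion channels, and engages metabotropic receptors, which act through G proteins. Beneath the receptors, scaffold proteins of the DLG, DLGAP, SHANK and HOMER families form layers of the postsynaptic density that tie channels to enzymes and to actin. Calcium entering the spine binds calmodulin and activates the kinase CaMKII and the phosphatase calcineurin, which are known for their opposing parts in strengthening and weakening cortical synapses.

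Of the 14 members that were not measured, 7 had no probe listed under their symbol alone (DLGAP1, DLGAP3, SHANK3, HOMER2, CAMK2B, CALM2 and CALM3). The other 7 had probes that were too dim (GRIK3, GRIK5, DLG1, DLGAP2, IQSEC1, NRGN and PPP3CC). Calmodulin and neurogranin therefore have no value here. Closest to the threshold on the inside were GRM5, detected on 5 arrays, and SHANK1, detected on 6. Closest on the outside were GRIK5, detected on 2 arrays, and DLG1, detected on 1. SHANK1, a scaffold of the deeper layer, was detected on 0 of 10 HFS+R arrays, 4 of 10 HFS arrays and 2 of 4 SD arrays, so its HFS+R level is only an upper bound and no fold is given.

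Levels below are log2 signals brought to a common mean and spread on every array. A value after ± is a standard deviation or, where marked SE, a standard error, and SD before a group's arrays is the standard diet. Levels compare groups for 1 probe and do not compare 1 gene with another. Resveratrol set against HFS alone (HFS+R against HFS) had 3 members higher (PPP3CA, HOMER1 and SORBS2) and 1 lower (DLGAP4), and 33 did not pass the limma test at an adjusted p under 0.05. This was 10.8% of the 37 measured members, beside 16% of all genes tested. By direction, the share over all genes was 9.94% higher and 6.07% lower. In HFS against SD, 0 members passed limma, beside 0% of all genes, and 6 of 37 members had an unadjusted p under 0.05, beside 12.6% of all genes. At that unadjusted p, HFS+R against HFS had 14 of 37 members, beside 31.4% of all genes, which is the share to read the role groups' counts below against. HFS+R against SD had 13 of 37 members at that p (35.1%), beside 20.4% of all genes. HFS+R set against SD had 2 members higher (PPP3CA and CAMK2G) and 2 lower (CAMK2D and IQSEC2), again 10.8%, beside 6.3% of all genes (2.21% higher and 4.1% lower). The median log2 difference of the measured members was −0.05, −0.11 and −0.10 in HFS+R against HFS, HFS against SD and HFS+R against SD, and that of all genes was 0.02, −0.03 and 0.01. These comparisons share animals, so their calls are not independent of one another. No member had groups that did not overlap in HFS+R against HFS or in HFS against SD (0 of 37 each, beside 0.152% and 0.536% of all genes), and 3 had in HFS+R against SD (beside 4.01%).

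The thresholds of the study are looser. They ask for an unadjusted p under 0.05, a false discovery rate under 0.3 and a Z ratio beyond 1.5 in either direction, where the Z ratio is a gene's difference in mean Z score in units of the SD that such differences have over the whole array. The paper prints the false discovery rate as above 0.3, which was read here as under 0.3. The cut-offs were applied to the limma p and adjusted p of the 9884 genes, so the test and the gene set are not the study's. These thresholds called 11 members in HFS+R against HFS (5 higher and 6 lower), beside 26.4% of all genes (16.3% higher and 10.1% lower). They called 2 members in HFS against SD, CAMK2G higher and CAMK2D lower, beside 5.38% of all genes (1.93% higher and 3.45% lower). In HFS+R against SD they called 11 (3 higher and 8 lower), beside 17.6% (7.87% higher and 9.68% lower).

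**Figure D1:**
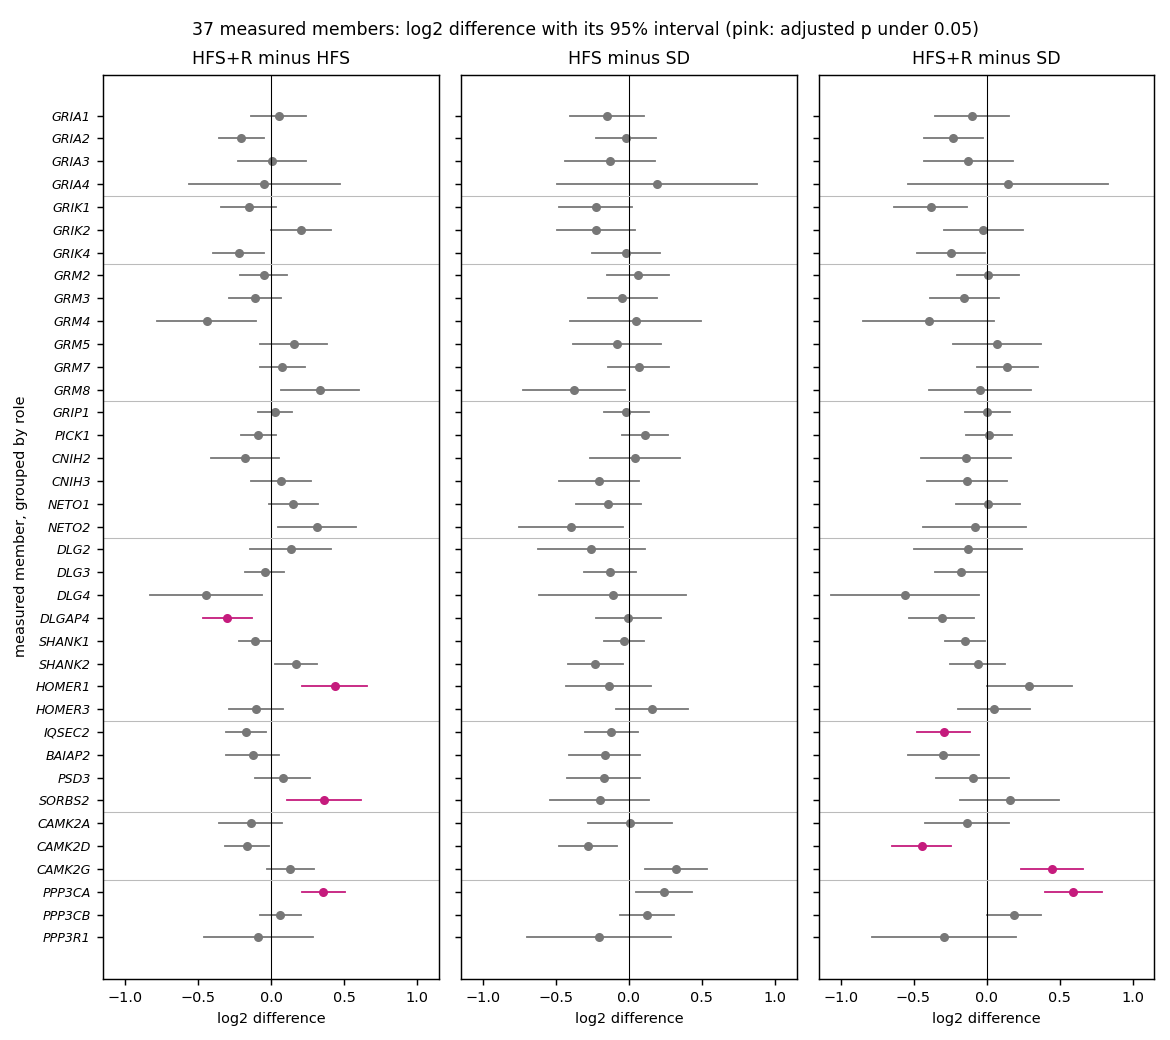
Log2 difference of each of the 37 measured members (points) with its 95% interval (lines) in HFS+R minus HFS, HFS minus SD and HFS+R minus SD, with members in role order from AMPA receptor subunits at the top to calcineurin at the bottom. Pink marks an adjusted p under 0.05: 4 members in the left panel, 0 in the middle and 4 in the right, with PPP3CA in both outer panels; the value of SHANK1 rests on HFS+R arrays where it was not detected.

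The arrays were alike in signal, with medians from 54.9 to 60.3 and 11413 to 14890 probes detected. The standard deviation of the log2 signal over an array, its spread, averaged 1.48 ± 0.05 in HFS+R, 1.42 ± 0.05 in HFS and 1.499 ± 0.08 in SD (SD, n = 10, 10 and 4). SD replicates 1 and 2 had the 2 highest scores of all arrays on the second principal component over all genes (20.4 and 14.5, with 7.96 on the next array). Without both, PPP3CA and CAMK2G still passed in HFS+R against SD, and CAMK2D (−0.36, adjusted p = 0.114) and IQSEC2 (−0.32, adjusted p = 0.125) did not, beside 3.29% of all genes called. Neurons were represented by 14 of 15 listed markers, all but SYT1. Of these 14, 0 were higher and 1 lower in HFS+R against HFS (9.94% and 6.07% of all genes). Their mean level, with each gene scaled to a standard deviation of 1, ran from −1.07 to 0.50 in HFS+R, from −0.42 to 0.71 in HFS and from −0.995 to 0.64 in SD (HFS+R against HFS, permutation p = 0.0476, 0.276 after adjustment over 21 tests). Of 10 measured oligodendrocyte markers, 3 were higher in HFS+R against HFS and 0 lower, beside 9.94% and 6.07% of all genes. The level of these markers ran from −0.24 to 1.53 in HFS+R and from −1.77 to 0.68 in HFS (permutation p = 0.0239, adjusted 0.251). With the oligodendrocyte marker level as a covariate, PPP3CA, HOMER1 and DLGAP4 still passed in HFS+R against HFS, and SORBS2 did not (adjusted p = 0.127). Of all genes, 8.71% were called with this covariate, against 16% without it. With the neuron marker level instead, PPP3CA and HOMER1 passed, and SORBS2 (adjusted p = 0.103) and DLGAP4 did not. That covariate left 8.12% of all genes called. The lists for excitatory and inhibitory neurons, astrocytes, microglia and endothelial cells had 8 measured markers each, with adjusted permutation p of 0.251 or more in every comparison. The smallest unadjusted permutation p of the 21 tests was that of the endothelial list in HFS+R against SD (0.013, adjusted 0.251). Its level ran from −0.60 to 0.54 in HFS+R and from −0.92 to −0.10 in SD. In HFS+R against HFS, 1 inhibitory neuron, 1 endothelial and 1 astrocyte marker were higher, and 1 astrocyte marker was lower. In whole cortex, fewer cells of a type and less RNA per cell cannot be told apart.

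The AMPA receptor subunits GRIA1 to GRIA4 form the channels of fast excitatory transmission, and GRIA2 is the subunit that limits their calcium entry. All 4 were measured and 0 passed the test in any comparison by limma, with 1 of 4 at an unadjusted p under 0.05 in HFS+R against HFS (31.4% of all genes). GRIA2 had the smallest p. Its level was 11.87, 12.07 and 12.28 on the lowest, median and highest HFS+R array, and 11.83, 12.32 and 12.49 on those of HFS. The 4 SD arrays had 12.14, 12.26, 12.41 and 12.41. The ranges of HFS+R and HFS overlapped in part: 6 of 10 HFS arrays lay above every HFS+R array, and all 10 HFS+R arrays were below the HFS mean. The log2 difference in HFS+R against HFS was −0.21 ± 0.07 (SE; limma adjusted p = 0.0594). It was −0.26 (adjusted p = 0.0101) without HFS replicate 6, −0.23 (0.0436) without HFS+R replicate 1 and −0.23 (0.0403) without HFS+R replicate 2, and it was 0.05 when arrays were scaled by their medians. With array weights it was −0.24 (0.0202). GRIA2 did not pass in 17 of 20 fits with 1 array left out, with limma adjusted p up to 0.107. The differences of GRIA1, GRIA3 and GRIA4 in HFS+R against HFS lay between −0.05 and 0.05. GRIA4 was detected on 15 arrays, and its 95% interval ran from −0.57 to 0.47.

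Kainate receptors tune release and excitability and are built of GRIK1 to GRIK5. GRIK1, GRIK2 and GRIK4 were measured, and 0 passed the test by limma in any comparison (1 of 3 at an unadjusted p under 0.05 in HFS+R against HFS, beside 31.4% of all genes). GRIK4, a subunit of high agonist affinity, had the smallest p. Its level was 5.83, 6.34 and 6.61 on the lowest, median and highest HFS+R array and 6.23, 6.50 and 6.69 on the HFS arrays, with 6.26, 6.47, 6.61 and 6.79 on the SD arrays. The groups overlapped in part, with 3 of 10 HFS+R arrays under every HFS array and 3 of 10 HFS arrays over every HFS+R array. GRIK4 was detected on 6 of 10 HFS+R, 10 of 10 HFS and 3 of 4 SD arrays. The 3 HFS+R arrays under every HFS array did not detect it, so the size of the difference rests in part on levels near background. The difference in HFS+R against HFS was −0.22 ± 0.08 (SE, limma adjusted p = 0.0704), and it was −0.26 without HFS replicate 6 (0.0398) and −0.26 without HFS+R replicate 1 (0.0324). Quantile normalization (−0.26, 0.0355), neqc (−0.44, 0.0324), array weights (−0.24, 0.0469) and the neuron marker level as a covariate (−0.29, 0.0365) also put it past the threshold. It did not pass in 18 of 20 fits with 1 array left out, with limma adjusted p up to 0.129.

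GRIK1, chosen after its values were seen, was 7.69, 7.92 and 8.231 on the lowest, median and highest HFS+R array, against 8.235, 8.235, 8.239 and 8.67 on the SD arrays. The groups nearly touched but did not overlap, as held for 3 of the 37 members in this comparison (GRIK1, CAMK2G and PPP3CA), and GRIK1 did not pass the test (log2 difference −0.38 ± 0.12 SE, limma adjusted p = 0.0595). It passed with detection on all 24 arrays (adjusted p = 0.0491), with only the groups compared (0.0372), with the array spread (0.0401) or the neuron marker level (0.0405) as a covariate, and without HFS+R replicate 6 (−0.41, 0.0433). GRIK2 had 3 kept probes with differences of 0.20, 0.23 and 0.31 in HFS+R against HFS. Only the dimmest of them passed when each probe was tested by itself (limma adjusted p = 0.0215). The mean of the 3 probes also passed (0.25, adjusted p = 0.0421), as did the brightest with the neuron marker level as a covariate (0.34, 0.017). On the dimmest, HFS+R arrays had 6.93, 7.09 and 7.54 at the lowest, median and highest, against 6.53, 6.81 and 7.24 in HFS, with overlap. The same 3 probes differed in HFS+R against SD by −0.02, −0.03 and −0.03.

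Of the metabotropic receptors, GRM2 and GRM3 couple to inhibition of cyclic AMP, as do GRM4, GRM7 and GRM8, which sit mainly on presynaptic terminals, whereas GRM5 couples to phospholipase C. All 6 were measured and 0 passed limma in any comparison (2 of 6 at an unadjusted p under 0.05 in HFS+R against HFS, beside 31.4% of all genes). GRM4 had the smallest p. Its level was 6.69, 7.52 and 7.99 on the lowest, median and highest HFS+R array, 7.37, 8.02 and 8.34 on the HFS arrays, and 7.06, 7.87, 8.10 and 8.48 on the SD arrays. The groups overlapped in part, with 3 of 10 HFS+R arrays under every HFS array and 6 of 10 HFS arrays over every HFS+R array. The difference was −0.44 ± 0.16 (SE, limma adjusted p = 0.0655). It was −0.50 without HFS replicate 8 (0.038) and −0.50 without HFS+R replicate 4 (0.0445), and −0.65 (0.0313) with the array spread as a covariate. Quantile normalization (−0.50, 0.0314), neqc (−0.62, 0.0364), the neuron marker level as a covariate (−0.63, 0.0153) and only the groups compared (0.0388) also put it past the threshold. It did not pass in 18 of 20 fits with 1 array left out, where the smallest difference was −0.35 and the limma adjusted p ran up to 0.121.

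GRM8 ran the other way, with values chosen after they were seen. HFS+R arrays had 7.32, 7.73 and 8.15 at the lowest, median and highest, HFS arrays 6.79, 7.42 and 8.10, and SD arrays 7.47, 7.73, 7.86 and 8.06. The groups overlapped widely. The difference was 0.33 ± 0.13 in HFS+R against HFS (SE, limma adjusted p = 0.075; 0.41 and 0.0186 without HFS replicate 6) and −0.38 ± 0.17 in HFS against SD (adjusted p = 0.355). Among the fits with 1 array left out, only that without HFS replicate 6 put GRM8 past the threshold. GRM2, GRM3 and GRM7 differed by −0.11 to 0.08 in HFS+R against HFS. GRM5, with 0.15, was detected on only 5 arrays, so its value is near background.

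The trafficking and auxiliary proteins bring receptors to the surface or change their gating: GRIP1 and PICK1 bind AMPA receptor tails, CNIH2 and CNIH3 are cornichons that accompany AMPA receptors, and NETO1 and NETO2 accompany kainate receptors. All 6 were measured and 0 passed limma (1 of 6 at an unadjusted p under 0.05 in HFS+R against HFS, beside 31.4% of all genes). NETO2 had the smallest p, with 9.06, 9.38 and 9.64 on the lowest, median and highest HFS+R array, 8.17, 9.07 and 9.48 on the HFS arrays and 9.11, 9.46, 9.56 and 9.58 on the SD arrays. The HFS arrays spread widest and included the lowest values, with overlap between all groups. The difference was 0.31 ± 0.13 in HFS+R against HFS (SE, limma adjusted p = 0.0984) and −0.40 ± 0.17 in HFS against SD (adjusted p = 0.34). The other 5 differed by −0.18 to 0.15 in HFS+R against HFS.

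Among the scaffolds, 8 of 14 were measured, and in HFS+R against HFS 1 was higher and 1 lower (9.94% and 6.07% of all genes). An unadjusted limma p under 0.05 was seen in 5 of 8, beside 31.4% of all genes. HOMER1, which links metabotropic receptors to SHANK proteins and has a short form induced by activity, was 8.30, 8.59 and 8.93 on the lowest, median and highest HFS+R array. HFS arrays had 7.80, 8.19 and 8.54, and SD arrays 7.86, 8.18, 8.34 and 8.83. HFS+R overlapped HFS in part, with 6 of 10 HFS+R arrays above every HFS array. HOMER1 averaged 8.59 ± 0.16 in HFS+R, 8.16 ± 0.26 in HFS and 8.30 ± 0.41 in SD (SD, n = 10, 10 and 4). The log2 difference was 0.43 ± 0.11 in HFS+R against HFS, 1.35-fold (SE, limma adjusted p = 0.00939), and 0.29 ± 0.14 in HFS+R against SD (adjusted p = 0.237; 0.47 and 0.0452 without SD replicate 1). With the array spread as a covariate the first was 0.32 (adjusted p = 0.094). That covariate left 4.07% of all genes called in HFS+R against HFS, beside 16% without it. The single probe does not tell the short form from the long ones here.

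DLGAP4, which joins DLG proteins to SHANK proteins, was lower in HFS+R. Its level was 9.20, 9.38 and 9.77 on the lowest, median and highest HFS+R array, 9.54, 9.70 and 10.09 on the HFS arrays, and 9.58, 9.70, 9.77 and 9.93 on the SD arrays. Of 10 HFS+R arrays, 7 lay below every HFS array, and the upper ones overlapped. DLGAP4 averaged 9.44 ± 0.21 in HFS+R and 9.74 ± 0.18 in HFS (SD, n = 10 each), a log2 difference of −0.30 ± 0.08 (SE, limma adjusted p = 0.0156). Against SD it was −0.31 ± 0.11 (adjusted p = 0.0932), and it passed without HFS+R replicate 4 (−0.34, 0.048) and with the oligodendrocyte marker level as a covariate (−0.37, 0.041). The call was lost with the array spread as a covariate (−0.25, adjusted p = 0.105), with the neuron marker level as a covariate (−0.27, adjusted p = 0.0602) and with median scaling (−0.14, adjusted p = 0.294). With these covariates, in that order, 4.07% and 8.12% of all genes were called, beside 16% without them.

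DLG4, also named PSD-95, is an abundant scaffold protein of the excitatory synapse. Its values were chosen after they were seen. HFS+R arrays had 9.47, 10.84 and 11.31 at the lowest, median and highest, HFS arrays 10.24, 11.26 and 11.73, and SD arrays 11.18, 11.37, 11.42 and 11.48. The HFS+R arrays spread widest: the lowest, replicate 3, had 9.47, and the next, replicate 9, had 10.57. The differences were −0.45 ± 0.19 in HFS+R against HFS (SE, limma adjusted p = 0.0981; −0.56 and 0.0221 without HFS replicate 10) and −0.56 ± 0.25 in HFS+R against SD (adjusted p = 0.188). Among the fits with 1 array left out, only that without HFS replicate 10 put DLG4 past the threshold. Leaving out HFS+R replicate 3, the array far below the rest, made the difference against HFS smaller in size. SHANK2, DLG2, DLG3 and HOMER3 differed by −0.10 to 0.17 in HFS+R against HFS on the probes that stand for them.

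DLG2, also named PSD-93, gave opposite signs on 2 probes. The brighter probe had 8.06, 9.11 and 9.36 on the lowest, median and highest HFS+R array, against 8.07, 8.91 and 9.25 in HFS, a log2 difference of 0.13 ± 0.14 (SE, limma adjusted p = 0.538 when each probe was tested by itself). The dimmer probe had 7.22, 7.81 and 8.47 in HFS+R, against 8.08, 8.32 and 8.60 in HFS and 8.45, 8.46, 8.52 and 8.71 on the SD arrays. Its difference was −0.43 in HFS+R against HFS (adjusted p = 0.0231) and −0.65 in HFS+R against SD (adjusted p = 0.0191). The probe is named here after its values were seen, and which transcripts of the monkey gene each probe meets was not tested. Of the 13 members with several kept probes (30 probes in all), 5 had a single sign in HFS+R against HFS and 8 had both.

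**Figure D2:**
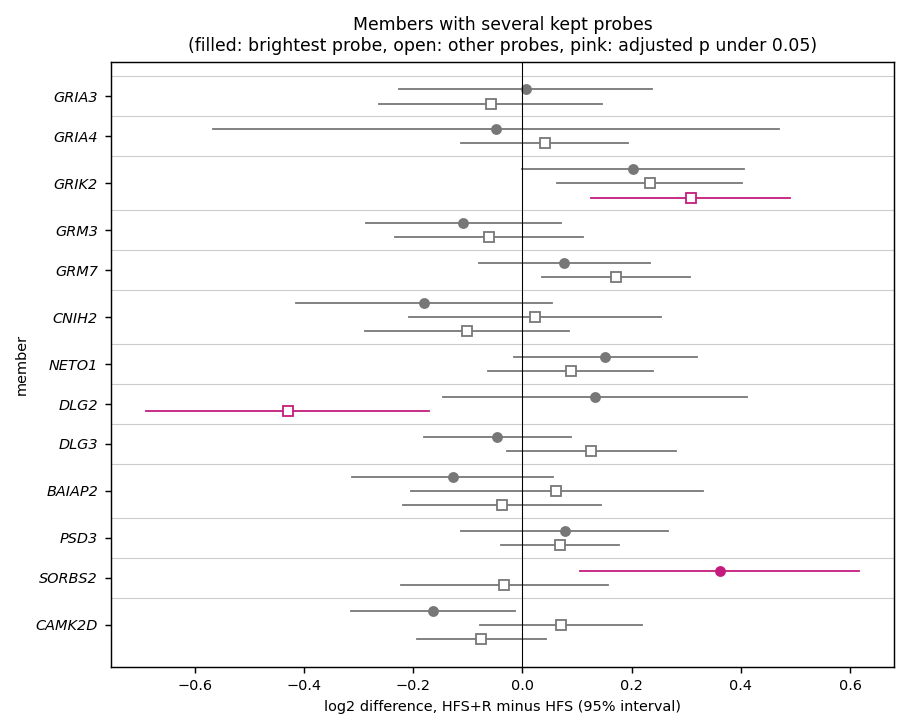
Log2 difference in HFS+R minus HFS of each kept probe of the 13 members with several, with its 95% interval (filled: brightest probe, open: other probes, pink: adjusted p under 0.05 over all kept probes with 1 gene). SORBS2 passed on its brightest probe (0.36), GRIK2 on its dimmest (0.31) and DLG2 on its dimmer one (−0.43), where its brighter probe had 0.13.

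Of the other proteins of the postsynaptic density, 4 of 5 were measured. In HFS+R against HFS 2 of 4 had an unadjusted limma p under 0.05, beside 31.4% of all genes. SORBS2, an adaptor that binds actin, was higher in HFS+R. Its level was 9.11, 9.44 and 9.74 on the lowest, median and highest HFS+R array, 8.57, 9.17 and 9.59 on the HFS arrays and 8.90, 9.12, 9.53 and 9.55 on the SD arrays. The groups overlapped, with 3 of 10 HFS+R arrays above every HFS array. SORBS2 averaged 9.43 ± 0.21 in HFS+R and 9.07 ± 0.36 in HFS (SD, n = 10 each), a log2 difference of 0.36 ± 0.12 (SE, limma adjusted p = 0.0483), close to the threshold. A dimmer SORBS2 probe gave −0.03. The call was lost in 9 of 17 other settings and when any of HFS replicates 2, 3, 5, 6, 7 or 8, or HFS+R replicates 1, 2, 3, 4, 7, 8 or 10, was left out (13 of 20 such fits), with log2 differences from 0.30 to 0.42 and adjusted p from 0.0281 to 0.0938 over all 20.

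IQSEC2, which activates the small GTPase ARF6 at excitatory synapses, was 8.25, 8.51 and 8.84 on the lowest, median and highest HFS+R array and 8.53, 8.70 and 8.91 on the HFS arrays, against 8.77, 8.78, 8.80 and 8.89 on the SD arrays. Only 1 of 10 HFS+R arrays reached the SD range. IQSEC2 averaged 8.52 ± 0.18 in HFS+R and 8.81 ± 0.06 in SD (SD, n = 10 and 4), a log2 difference of −0.29 ± 0.09 (SE, limma adjusted p = 0.046). The call was lost in 9 of 18 other settings and when any of the 4 SD arrays or HFS+R replicates 1, 3, 7, 8, 9 or 10 was left out (10 of 14 such fits, adjusted p from 0.0181 to 0.138 over all 14), while the log2 difference stayed between −0.345 and −0.259 over the settings and between −0.329 and −0.264 over the left-out arrays. IQSEC2 differed by −0.17 ± 0.07 in HFS+R against HFS (SE, limma adjusted p = 0.0758). That passed with quantile normalization (−0.22, 0.0356), neqc (−0.25, 0.041) and without HFS+R replicate 6 (−0.21, 0.0287). BAIAP2, a regulator of spine actin, and PSD3, an exchange factor for ARF6, differed by −0.29 and −0.09 in HFS+R against SD (limma adjusted p = 0.147 and 0.716).

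CaMKII is a ring of subunits drawn from 4 genes, of which CAMK2A, CAMK2D and CAMK2G were measured. In HFS+R against HFS 1 of 3 had an unadjusted limma p under 0.05, beside 31.4% of all genes. CAMK2A, the main neuronal subunit of the forebrain, was 11.53, 12.00 and 12.39 on the lowest, median and highest HFS+R array, 11.83, 12.21 and 12.38 on the HFS arrays and 11.84, 11.95, 12.30 and 12.52 on the SD arrays. It did not pass in any comparison by limma, with differences from −0.14 to 0.01. The other subunits differed in opposite directions from SD.

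CAMK2G was 12.15, 12.26 and 12.49 on the lowest, median and highest HFS+R array and 11.84, 12.16 and 12.41 on the HFS arrays, against 11.45, 11.94, 11.95 and 11.99 on the SD arrays. Every HFS+R array lay above every SD array, and HFS lay across the gap. CAMK2G averaged 12.28 ± 0.11 in HFS+R, 12.15 ± 0.20 in HFS and 11.83 ± 0.25 in SD (SD, n = 10, 10 and 4). The difference was 0.45 ± 0.10 in HFS+R against SD (SE, limma adjusted p = 0.00846), 0.32 ± 0.10 in HFS against SD (adjusted p = 0.241) and 0.13 ± 0.08 in HFS+R against HFS (adjusted p = 0.264). The last passed with quantile normalization (0.25, adjusted p = 0.0435) and median scaling (0.39, 0.0356). The lowest SD array, replicate 3, stood apart, and without it the difference in HFS+R against SD was 0.32 (adjusted p = 0.0772). With median scaling that was 0.37 (adjusted p = 0.267).

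CAMK2D was 7.02, 7.37 and 7.72 on the lowest, median and highest HFS+R array and 7.23, 7.54 and 7.74 on the HFS arrays, against 7.56, 7.89, 7.90 and 7.91 on the SD arrays. Only 1 of 10 HFS+R arrays reached the SD range. CAMK2D averaged 7.37 ± 0.18 in HFS+R, 7.53 ± 0.14 in HFS and 7.81 ± 0.17 in SD (SD, n = 10, 10 and 4). The difference was −0.44 ± 0.10 in HFS+R against SD (SE, limma adjusted p = 0.00599) and −0.28 ± 0.10 in HFS against SD (adjusted p = 0.262). In HFS+R against HFS it was −0.16 ± 0.07 (SE, limma adjusted p = 0.125). That passed with quantile normalization (−0.22, 0.0309), neqc (−0.28, 0.0327), array weights (−0.194, 0.0499) and the oligodendrocyte marker level as a covariate (−0.255, 0.0401). Its other kept probes gave −0.16 and −0.21 in HFS+R against SD (adjusted p = 0.373 and 0.109 when each probe was tested by itself). In HFS+R against HFS they gave 0.07 and −0.08. The first of them, detected on all 24 arrays, was nearly as bright as the probe that stands for CAMK2D (mean level 7.49 against 7.51). Without SD replicates 1 and 2 the difference of the brightest probe in HFS+R against SD was −0.36 (adjusted p = 0.114).

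Calcineurin, the calcium-activated phosphatase, has a catalytic subunit from PPP3CA, PPP3CB or PPP3CC and a regulatory subunit from PPP3R1. In HFS+R against HFS 1 of 3 measured had an unadjusted limma p under 0.05, beside 31.4% of all genes. PPP3CA was higher in HFS+R than in both other groups, with 9.61, 9.85 and 10.00 on the lowest, median and highest HFS+R array, 9.23, 9.47 and 9.74 on the HFS arrays and 9.10, 9.21, 9.28 and 9.43 on the SD arrays. Of 10 HFS+R arrays, 9 lay above every HFS array, and all 10 above every SD array. PPP3CA averaged 9.85 ± 0.12 in HFS+R, 9.49 ± 0.19 in HFS and 9.26 ± 0.14 in SD (SD, n = 10, 10 and 4).

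The PPP3CA difference was 0.36 ± 0.07 in HFS+R against HFS, 1.28-fold (SE, limma adjusted p = 0.00263), and 0.60 ± 0.09 in HFS+R against SD, 1.51-fold (adjusted p = 0.000428). In HFS against SD it was 0.24 ± 0.09 (adjusted p = 0.303). The call against HFS was kept in 17 of 17 other settings and in 20 of 20 fits with 1 array left out, with differences from 0.33 to 0.52. These are not independent checks. PPP3CA has 1 kept probe, so the deposited Z scores, the probe filters, the probe rules and the study's thresholds reuse the same levels. PPP3CB, the other catalytic subunit measured, did not pass, with 0.06 ± 0.07 in HFS+R against HFS (adjusted p = 0.569) and 0.19 ± 0.09 in HFS+R against SD (adjusted p = 0.244). Against HFS it passed with quantile normalization (0.18, adjusted p = 0.00926), neqc (0.18, 0.0169), median scaling (0.33, 0.0107) and the array spread as a covariate (0.19, 0.0295), and against SD with quantile normalization (0.19, 0.0439). PPP3R1 differed by −0.09 ± 0.18 and −0.29 ± 0.24 in the same comparisons (adjusted p = 0.781 and 0.539).

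**Figure D3:**
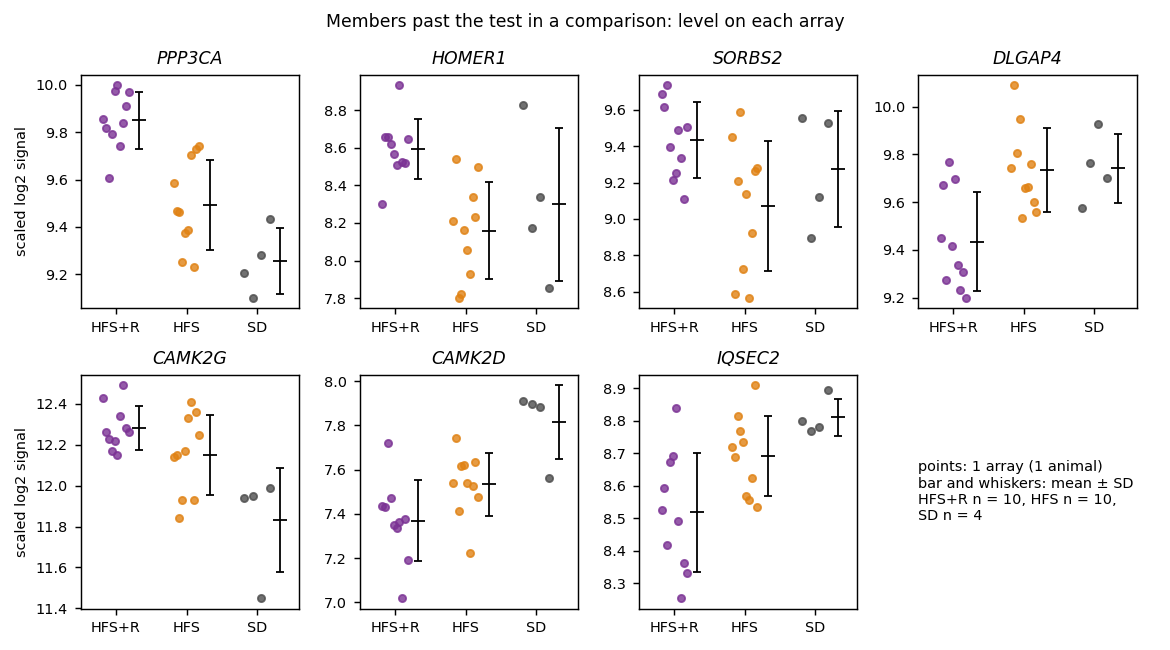
Scaled log2 signal (vertical axis) of the 7 members past the test in at least 1 comparison, with 1 point per array in HFS+R, HFS and SD, and a bar with whiskers for the mean ± SD (n = 10, 10 and 4). PPP3CA in HFS+R lies above every SD array, as does CAMK2G, and 9 of 10 PPP3CA points lie above every HFS array; vertical axes differ between panels and do not start at 0.

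The rest of the glutamate synapse was looked at in a list of 45 further genes, of which 31 were measured. Of these, 2 were higher and 4 lower in HFS+R against HFS (19.4%, beside 16% of all genes). CNIH1, a cornichon of the secretory pathway, averaged 9.63 ± 0.21 in HFS+R and 9.24 ± 0.12 in HFS (SD, n = 10 each; log2 difference 0.39, limma adjusted p = 0.00549). LRRC7, a scaffold also named densin, averaged 7.33 ± 0.21 and 7.01 ± 0.19 in the same groups (0.32, adjusted p = 0.0214). Among those lower were CAMK2N1, an inhibitor of CaMKII, with 13.3 ± 0.15 in HFS+R and 13.8 ± 0.28 in HFS (−0.49, adjusted p = 0.00491), and CACNG2, also named stargazin, which carries AMPA receptors to the synapse, with 9.57 ± 0.21 and 9.87 ± 0.11 (−0.30, adjusted p = 0.00624). CAMKK2, a kinase upstream of other calmodulin kinases, and ARC, an activity-induced protein that promotes AMPA receptor uptake, differed by −0.31 (adjusted p = 0.0113) and −0.27 (adjusted p = 0.03). In HFS against SD 0 of the 31 passed limma, beside 0% of all genes, and 2 had an unadjusted p under 0.05, beside 12.6%. In HFS+R against SD 0 were higher and 2 lower (6.45%, beside 6.3% of all genes, 4.1% lower). They were CAMK2N1 (−0.49, limma adjusted p = 0.0402) and PPP1R9A, a spine actin protein (−0.46, adjusted p = 0.0388).

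The members also varied from animal to animal within diets. With the diet means taken out, the median Pearson r over 24 arrays was 0.02 for the 666 pairs of measured members and 0.02 for all pairs of genes tested, and the median size of r was 0.22 and 0.19. With the array spread taken out it was 0.194 for the members, a value not computed for all genes. After adjustment over the 666 pairs, 6 had a positive and 3 a negative r past 0.05 by permutation within diets. CAMK2A with PPP3CB had the highest r, 0.80 (permutation p = 0.00013, adjusted 0.0144; Spearman rho 0.80, permutation p = 0.00013). It was 0.73 without the 2 arrays farthest from the CAMK2A median and 0.49 with the array spread taken out. Both genes followed that spread, with r of −0.73 for CAMK2A and −0.85 for PPP3CB.

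GRIA1 with GRIK2 had r of 0.75 (permutation p = 5e-05, adjusted 0.0111; rho 0.75, permutation p = 0.00011), which was 0.74 without the 2 farthest arrays and 0.75 with the array spread taken out. Within diets it was 0.79 over the 10 HFS+R arrays and 0.69 over the 10 HFS arrays. The lowest values were −0.80 for GRM4 with CNIH2 (permutation p = 5e-05, adjusted 0.0111; rho −0.73, permutation p = 0.0004) and −0.79 for PICK1 with SHANK2 (permutation p = 2e-05, adjusted 0.0111; rho −0.77, permutation p = 6e-05). Without the 2 farthest arrays they were −0.69 and −0.71. The partners of both pairs followed the array spread with opposite signs, with r of 0.494 for GRM4, −0.425 for CNIH2, −0.468 for PICK1 and 0.485 for SHANK2. With the array spread taken out, both pairs kept most of their negative r. GRM4 with CNIH2 had −0.85 within HFS+R and −0.36 within HFS, and PICK1 with SHANK2 had −0.80 and −0.84.

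**Figure D4:**
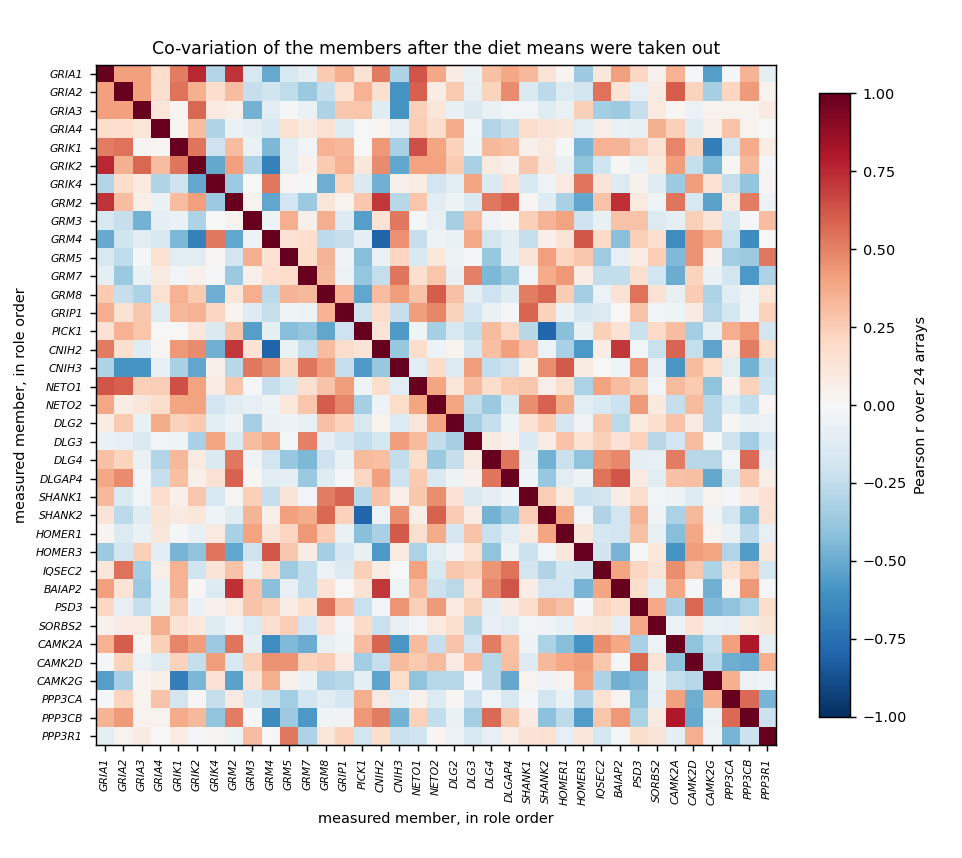
Pearson r (colour, from −1 in blue to 1 in red) for every pair of the 37 measured members over 24 arrays after the diet means were taken out, with members in role order on both axes. The darkest red cells off the diagonal are CAMK2A with PPP3CB (0.80) and GRIA1 with GRIK2 (0.75), and the darkest blue are GRM4 with CNIH2 (−0.80) and PICK1 with SHANK2 (−0.79).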

How the data were processed

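The authors hybridised cortex RNA to Illumina HumanHT-12 V4.0 beadchips, read them with GenomeStudio 2011.1 (per the submitters' processing notes) and deposited, per probe and array, a signal intensity and a detection p-value. They also deposited a Z score, the log2 signal centred and divided by its SD over the array, which differed from the computed one by at most 5e-10. Human probes were used on monkey RNA, so a sequence mismatch can lower a probe's signal in all groups alike. Of 47323 probes, 30113 carry 1 gene symbol in the platform annotation. Z scores were multiplied by 1.46 and shifted by 6.46 to read as log2. Probes with a detection p under 0.01 on 4 or more arrays were kept, and the brightest of a gene stood for it (9884 genes). The 3 diets were fitted in 1 model with limma 3.58.1 in R 4.3.3, with Benjamini-Hochberg adjustment over all genes of a comparison and 0.05 as threshold, 2-sided. The limma fit was tested on simulated arrays and the choice of the brightest probe on a small made-up example. The other steps were not tested in this way. Marker levels and correlations used 100000 permutations, or all 1001 splits with SD (Python, 2-sided). The members, lists and tests were chosen with earlier results of these data known. Named were members past the test, in roles with none past it the member with the smallest p in HFS+R against HFS, and up to 4 called genes per direction of the wider list; other members named are marked. Alternatives were other normalizations, filters, probe rules, models, covariates, the study's thresholds, a replicate block and leaving arrays out. No sequence is printed.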

Additional observations from a re-analysis of the deposited data

Results flagged for a closer look

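Over the 11 named members and 3 diets, 33 groups of arrays were searched for a highest or lowest array that stood apart from its group (Dixon's test at 95%, for which chance gives about 1 group in 20), and 3 did. CAMK2D was 7.56 in SD replicate 4, with 7.88 on the nearest array of its group. CAMK2G was 11.5 in SD replicate 3, with 11.9 on the nearest. GRIA2 was 11.8 in HFS replicate 6, with 12.2 on the nearest.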

How the results depend on the processing

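In HFS+R against HFS the 4 members called became 9 with quantile normalization (4 higher, 5 lower; 15.8% of all genes), 8 with neqc at an offset of 16 (3 higher, 5 lower; 15.1%), 11 at the study's thresholds (5 higher, 6 lower; 26.4%) and 7 with the replicate block (4 higher, 3 lower; 15.6%). Median scaling gave 6 higher and 0 lower, beside 14.3% of all genes higher and 0.739% lower, and moved the median of all genes to 0.11, against 0.02. In HFS against SD the count stayed 0 except at the study's thresholds, with 2 (5.38%). In HFS+R against SD it was 2 with median scaling (3.65% of all genes), 11 at the study's thresholds (3 higher, 8 lower; 17.6%), 0 with the replicate block, which called 0 of 9884 genes, and 2 without SD replicates 1 and 2 (3.29%), a setting chosen after the data were seen. With 1 array left out the counts ran from 3 to 6, 0 to 0 and 2 to 5, the lowest of the last without SD replicate 3 and the highest of the first without HFS replicate 6. GRIA2 in HFS+R against HFS turned to 0.0547 with median scaling. The cause was not tested. Replicate numbers do not pair the animals: same-numbered arrays correlated at −0.118 to 0.249 in HFS+R against HFS, and 3 of 10 correlated best with their own number. With the block, PPP3CA in HFS+R against SD was 0.51 (adjusted p = 0.305) over 4 pairs. GRM5, SHANK1, GRIP1, GRIA4 and, on part of the HFS+R arrays, GRIK4 were near background.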
